A study of Mus musculus with 21 samples.

Results

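Transcripts that mark neutrophils were followed through the colon and ileum of mice in which the vitamin D receptor (VDR) had been removed from, or put back into, the intestinal epithelium. The 7 genes were chosen by symbol (S100a8, S100a9, Retnlg, Mmp8, Cxcr2, Csf3r and Il1b), and all 7 were found among the 21441 genes of each table. Values were labelled FPKM, by definition fragments scaled to transcript length and to the mapped fragments of the library. They came from poly(A) RNA of material labelled as intestinal epithelium of C57BL6J mice. They were deposited as 6 tables that each hold 2 groups of 1 tissue. The values of a library differed between tables by a constant factor, so they also carry a scaling that depends on the table. The KO groups (4 colon and 4 ileum libraries) came from male Villin-CreERT2 VDR f/f mice of 9 or 11 weeks, in which a tamoxifen-inducible Cre under the villin promoter can delete Vdr in epithelial cells, so that their white blood cells should keep the receptor. The uninjected groups (4 colon and 3 ileum libraries) came from CDX2-VDR transgenic mice of 9 or 10 weeks, which by their label have no endogenous VDR and carry human VDR in the distal intestine alone. By their labels 3 of the 4 colon mice and 2 of the 3 ileum mice were female. The treated groups (3 colon and 3 ileum libraries) were male CDX2-VDR mice of 9 weeks given 3 injections of 1,25-dihydroxyvitamin D3, the hormone that activates VDR, at 1 ng per g body weight 48, 24 and 6 h before termination. No group in these data was labelled as vehicle-injected, so the hormone and the injections cannot be told apart, and treated and KO mice differ in genotype as well.

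Neutrophils are short-lived white blood cells that leave the blood for infected or damaged tissue. They are drawn by CXC chemokines that bind the receptor Cxcr2, are made and kept alive under granulocyte colony-stimulating factor acting through Csf3r, and carry S100a8 and S100a9, which pair as calprotectin, as a large part of their cytosolic protein. In the gut they are scarce in health and accumulate in inflammation, where calprotectin in stool is used as a clinical marker. None of the 7 genes is made by neutrophils alone: Il1b is also made by monocytes and macrophages, and S100a8 and S100a9 by monocytes and stressed epithelium. In bulk tissue RNA, more cells of a type and more RNA per cell cannot be told apart.

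The genes lie at separate places in the mm9 genome, by GENCODE M1, apart from the calprotectin pair. S100a8 (3:90472993-90473956, plus strand) and S100a9 (3:90496554-90499643, minus strand) are neighbours separated by 22597 bases. Retnlg, which encodes resistin-like gamma, a secreted protein made in bone marrow and neutrophils, lies at 16:48872721-48874611 on the plus strand beside the related genes Retnla and Retnlb. Mmp8, neutrophil collagenase, lies at 9:7558429-7568486. Cxcr2 lies at 1:74200563-74207812, Csf3r at 4:125701794-125722219 and Il1b at 2:129190306-129196875. Of stretches of 31 bases in the annotated coding transcripts, S100a8, S100a9, Il1b and Mmp8 shared none with another gene. Retnlg shared 31 of 578 with Retnla alone, Cxcr2 shared 157 of 3031 with 190 genes and Csf3r 132 of 4067 with 265 genes, so that fragments from those stretches may be assigned to more than 1 gene.

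The 250 bases before the start of 4 members are shown, because S100a8, S100a9 and Retnlg had the highest mean levels among the 7 in treated colon, and Cxcr2 had the highest in KO colon and differed little between groups. They were taken from RefSeq (GRCm38.p6) and placed on mm9 by their exact match there, and are written 5′ to 3′ on the gene's strand with motif matches in capitals.
S100a8, chr3:90472743-90472992, plus strand: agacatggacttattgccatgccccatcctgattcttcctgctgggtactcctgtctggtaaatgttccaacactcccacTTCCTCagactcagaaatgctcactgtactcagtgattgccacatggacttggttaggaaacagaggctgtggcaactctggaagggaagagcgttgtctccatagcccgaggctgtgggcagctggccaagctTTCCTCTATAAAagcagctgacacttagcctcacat
S100a9, chr3:90499644-90499893, minus strand: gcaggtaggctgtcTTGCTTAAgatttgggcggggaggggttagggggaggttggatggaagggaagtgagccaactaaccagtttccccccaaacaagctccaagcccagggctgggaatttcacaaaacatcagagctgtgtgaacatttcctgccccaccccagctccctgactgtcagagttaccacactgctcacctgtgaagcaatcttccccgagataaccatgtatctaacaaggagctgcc
Retnlg, chr16:48872471-48872720, plus strand: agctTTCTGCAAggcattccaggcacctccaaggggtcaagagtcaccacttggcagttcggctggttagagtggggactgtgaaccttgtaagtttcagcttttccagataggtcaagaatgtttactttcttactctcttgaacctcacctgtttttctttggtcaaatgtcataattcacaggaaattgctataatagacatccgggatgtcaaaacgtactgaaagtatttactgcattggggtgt
Cxcr2, chr1:74200318-74200567, plus strand: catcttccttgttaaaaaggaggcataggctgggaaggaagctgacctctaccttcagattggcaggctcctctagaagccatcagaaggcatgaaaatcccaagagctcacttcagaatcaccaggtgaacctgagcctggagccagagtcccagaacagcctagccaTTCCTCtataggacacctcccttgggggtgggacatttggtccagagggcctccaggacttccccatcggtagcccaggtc
The capitals mark 3 motifs, searched on both strands, whose matches do not overlap here. The TATA box was searched as TATAAA. The C/EBP type motif was searched as TTGCNNAA. The motif of the ETS and PU.1 type was searched as GAGGAA. In S100a8 a TATAAA stood 30 to 25 bases before the start, next to a GAGGAA match on the opposite strand at 36 to 31 bases, and a further GAGGAA match stood at 170 to 165 bases. S100a9 held a TTGCNNAA match at 236 to 229 bases, Retnlg held one on the opposite strand at 246 to 239 bases, and Cxcr2 held a GAGGAA match at 81 to 76 bases. Over the 7 members, TATAAA was found in 2, against 12.4% of 32851 promoters of this length, TTGCNNAA in 3 (S100a9, Retnlg and Mmp8), against 9.56%, and GAGGAA in 4, against 23.3%. Neither an NF-kB type motif (in 0.98% of promoters) nor a direct repeat of the kind VDR binds (in 0.548%) was found in these windows of the 7. A match of letters is a description of these windows and not a measured site.

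Whole-number estimated counts could be recovered for 83.3% of colon and 82.4% of ileum genes, and the recovered counts summed to between 5.15 and 22.8 M counts per library. Vdr itself was listed at 20.6 to 23.5 FPKM in the colon KO libraries and at 12.7 to 37.5 in the other colon libraries, which checks nothing where only part of the transcript is deleted. Its target Trpv6, an epithelial calcium channel, stood at 0.0906 to 0.699 FPKM in colon KO against 75.3 to 376 in the other colon libraries. In ileum Trpv6 was higher in every treated library (0.546 to 3.2 FPKM) than in KO (0.1 to 0.159). Uninjected ileum libraries, at 0.105 to 2.15 FPKM, overlapped both groups. Epcam, an epithelial marker, was at least 614 FPKM in every library. Pancreatic acinar transcripts summed to 33500 FPKM in colon KO 2, 115000 in colon uninjected 3 and 14800 in colon treated 4, and to at most 846 in the other colon libraries. Colon uninjected 3, labelled female, had 12.1 FPKM of the Y-linked gene Ddx3y. The series' design text counts 3 uninjected and 4 treated colon samples where the sample labels give 4 and 3, and the labels were used here. Cyp24a1, the hormone-degrading enzyme that VDR induces, was at 1.2 FPKM in colon uninjected 3, against 0 to 0.284 in the other uninjected and 8.31 to 28.5 in the treated colon libraries. In the ileum uninjected group, 2 of whose 3 mice are labelled female, Ddx3y was above 1 FPKM in 2 of 3 libraries. Library numbers are those of the deposited columns (treated 1, 2 and 4; ileum uninjected 1, 3 and 4). The labels name no animals, so p-values measure the spread between these libraries.

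In the colon of mice given 1,25-dihydroxyvitamin D3, Retnlg was higher than in KO. It was the 1 member that passed this test, out of 5 members tested. Genes were tested where their mean over both groups reached 1 FPKM. Of these 5 only Cxcr2 reached it in KO, and the others entered through the treated libraries. Against uninjected colon, of the same genotype, Retnlg was not called (adjusted p 0.171 in limma). Retnlg was listed at 0.900, 0.917, 0.757 and 0.682 FPKM in KO 1 to 4 and at 8.23, 6.91 and 8.22 FPKM in treated 1, 2 and 4. The treated libraries lay close together, and each was above every KO library. The treated mean was 7.78 ± 0.761 FPKM (SD, n = 3) against 0.814 ± 0.114 (SD, n = 4). In limma the log2 difference was 2.66 (SE 0.188), or 6.30-fold on the log2(FPKM + 0.5) scale, with a Benjamini-Hochberg adjusted p of 0.00104, the fifth smallest p among 12505 genes. By the same test 0.296% of all tested genes were called (37 of 12505), and 0.224% were called higher. The recovered counts behind these levels were 219 in all for the treated libraries and 35 for KO. With no filter the adjusted p of Retnlg was 0.0037 in limma, and 0.181% of 18251 genes were called.

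S100a8, 1 of the 2 calprotectin subunits, had the largest difference of the 7 in colon on the log2(FPKM + 0.5) scale but did not pass the test, and its treated libraries differed widely from each other. It was listed at 0.426, 0.781, 0 and 0.323 FPKM in KO 1 to 4 and at 5.96, 100.5 and 60.7 FPKM in treated 1, 2 and 4. Every treated library was above every KO library, and treated 1 was far below the other two. S100a8 differed by 5.35 on the log2 scale (SE 0.851), or 40.9-fold, with an adjusted p of 0.0567 in limma, and of 0.11 with no filter. Without treated 1 it was 6.55 with an adjusted p of 0.00304, and with quantile normalization the adjusted p was 0.0469. Without KO 2, whose acinar transcripts were high, it was 5.56 with an adjusted p of 0.153. Over all alternative settings the log2 difference ran from 4.57 to 6.55 and the adjusted p in limma from 0.00304 to 0.494.

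S100a9, the other calprotectin subunit, followed the same order of treated libraries at lower levels. It was listed at 0.123, 0.225, 0.265 and 0 FPKM in colon KO and at 0, 13.6 and 7.97 FPKM in treated 1, 2 and 4. Treated 1 was at 0 and so overlapped KO, while the other two were far above it. S100a9 differed by 2.60 on the log2 scale (SE 1.01), with an adjusted p of 0.618 in limma. Without treated 1 it was 4.08 with an adjusted p of 0.00852. Leaving out 1 library gave 1.67 to 4.08, and over all alternative settings the adjusted p in limma ran from 0.00852 to 0.9972. In the 2 treated libraries with both subunits, the FPKM level of S100a8 was 7.41 and 7.61 times that of S100a9.

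Mmp8, a collagenase stored in neutrophil granules, was close to 0 in colon outside the treated group. One KO library was listed at 0.0167 FPKM, from 1 recovered count, and the other 3 KO libraries at 0, while treated 1, 2 and 4 were listed at 0.0728, 0.210 and 2.68 FPKM. The groups did not overlap, but treated 4 alone held most of the level. The gene was below the filter of a mean of 1 FPKM, and with no filter its log2 difference was 1.11, with an adjusted p of 0.719 in limma. Recovered counts were 164 over the treated libraries.

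**Figure D1:**
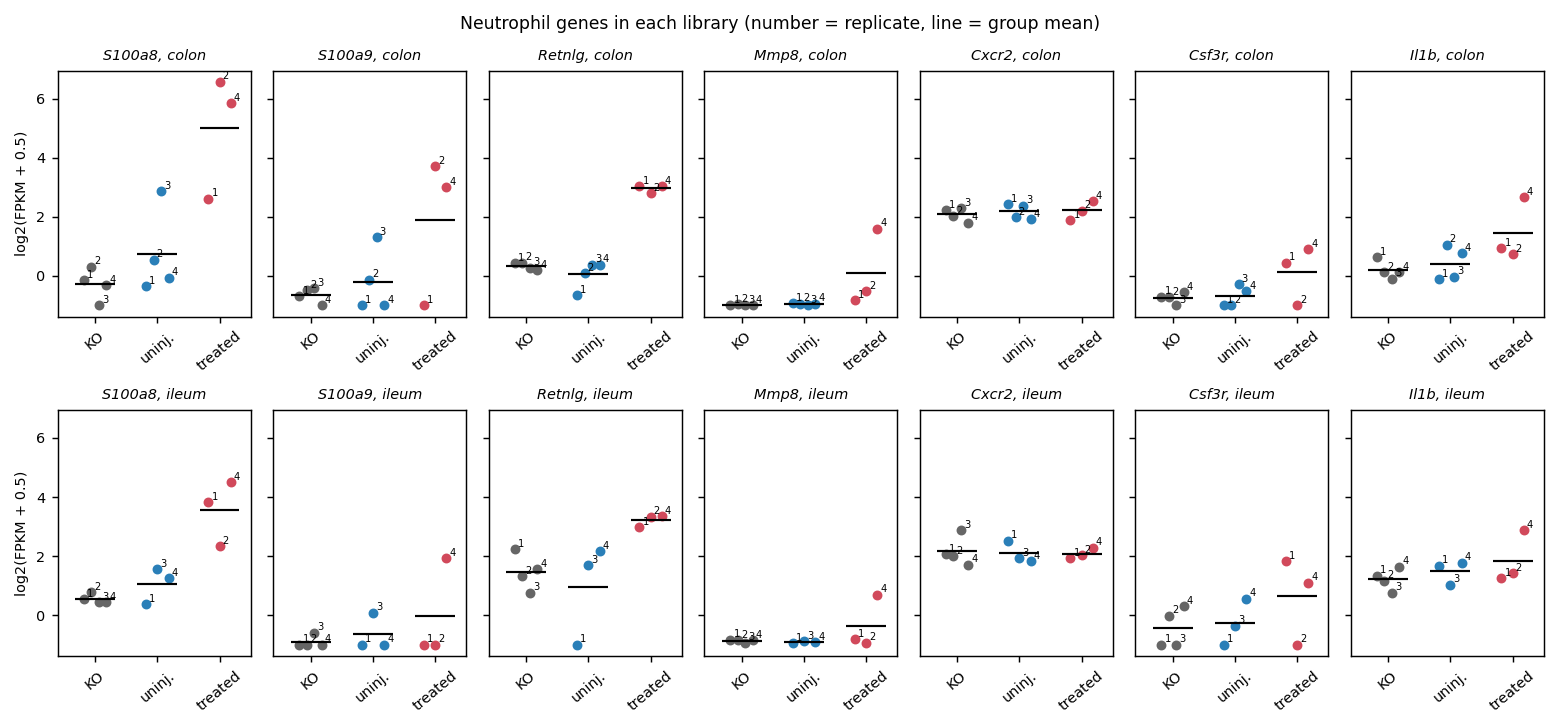
Level of each of the 7 genes in every library, as log2(FPKM + 0.5), by tissue and group. Treated libraries were put on the scale of the KO and uninjected table by 1 factor per tissue, taken from the KO libraries. Points are libraries and lines are group means. The treated libraries of Retnlg lie close together above KO, those of S100a8 are spread out, and the groups of Cxcr2 overlap.

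Of the 2 receptors, Cxcr2, through which CXC chemokines draw neutrophils, had the highest level of the 7 in KO colon, at 4.44, 3.78, 4.67 and 3.16 FPKM. It was listed at 3.43, 4.39 and 5.64 FPKM in treated 1, 2 and 4. The groups overlapped throughout, with means of 4.49 ± 1.11 (SD, n = 3) and 4.01 ± 0.681 (SD, n = 4) FPKM. The log2 difference was 0.13 (SE 0.219, adjusted p 0.900 in limma), and its sign turned to -0.03 without treated 4. It rested on 837 recovered counts in treated and 1180 in KO colon, the most of any member.

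Csf3r, the receptor for granulocyte colony-stimulating factor, was listed at 0.122, 0.112, 0 and 0.193 FPKM in KO colon and at 0.921, 0 and 1.47 FPKM in treated 1, 2 and 4. Treated 2, the library highest in S100a8 and S100a9, was at 0 for this receptor. The gene was below the filter, and with no filter its log2 difference was 0.89 (adjusted p 0.712 in limma). No library had a recovered count between 0 and 11, so a listed 0 need not mean that the transcript was absent.

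Il1b, which encodes the inflammatory cytokine interleukin-1 beta, was listed at 1.11, 0.623, 0.464 and 0.623 FPKM in KO colon and at 1.49, 1.24 and 6.26 FPKM in treated 1, 2 and 4. All treated libraries were above all KO libraries, 2 of them by little. The log2 difference was 1.27 (SE 0.477), with an adjusted p of 0.603 in limma. In all, 4 of the 7 genes (S100a8, Retnlg, Il1b and Mmp8) had treated libraries wholly above KO in colon, against 4.07% of the 18251 genes listed above 0 in that table.

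**Figure D2:**
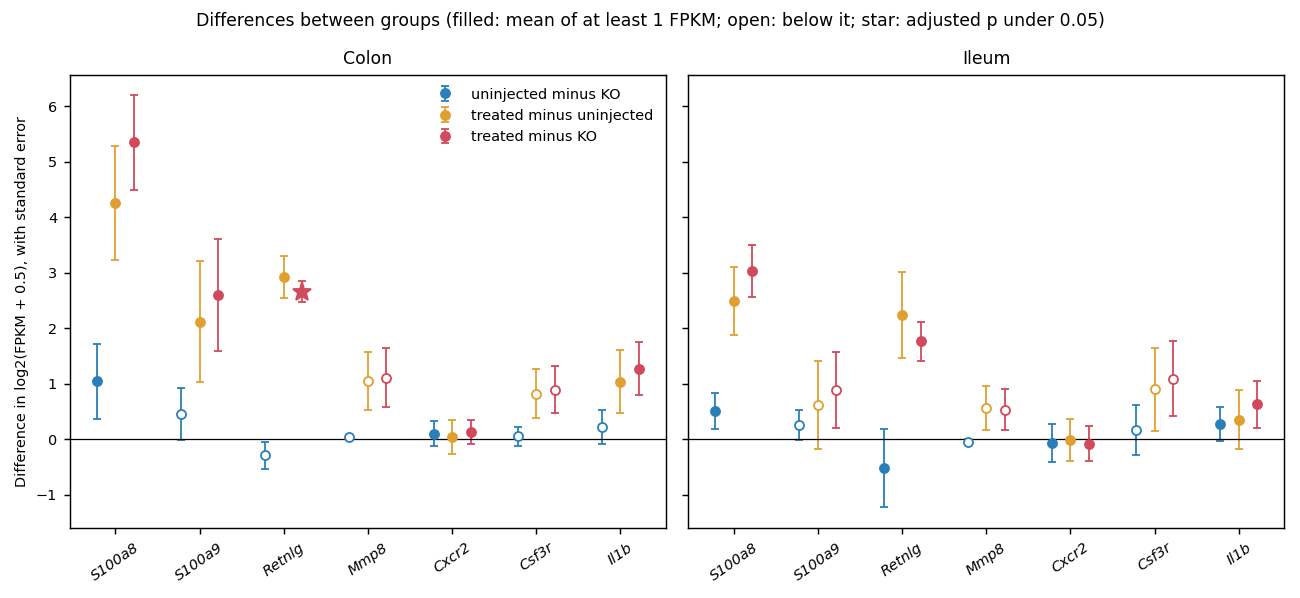
Log2 difference of each gene with its standard error in the 3 comparisons of each tissue. Filled points passed the filter of a mean of 1 FPKM, open points are from the fit with no filter, and the star marks an adjusted p under 0.05, reached by Retnlg in treated against KO colon.

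In the ileum, S100a8 and Retnlg had the largest treated levels and no member passed the test against KO (4 were tested), where 0.0835% of all genes were called (10 of 11974). S100a8 was listed at 0.984, 1.27, 0.893 and 0.898 FPKM in KO and at 14.2, 4.77 and 23.3 FPKM in treated 1, 2 and 4. Each treated library was above every KO library, treated 2 by the least. This was a log2 difference of 3.03 (SE 0.461), or 8.16-fold, with an adjusted p of 0.0828 in limma. Without treated 2 it was 3.64 with an adjusted p of 0.0129. Leaving out 1 library gave 2.55 to 3.64, and over all alternative settings the adjusted p in limma ran from 0.0129 to 0.47.

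Retnlg in ileum was listed at 4.39, 2.09, 1.26 and 2.58 FPKM in KO and at 7.71, 10.0 and 10.1 FPKM in the treated libraries. The groups did not overlap, and every KO ileum library was listed above every KO colon library, although the tables of the 2 tissues were normalized separately. The means were 9.27 ± 1.36 (SD, n = 3) and 2.58 ± 1.32 (SD, n = 4) FPKM, a log2 difference of 1.76 (SE 0.353, adjusted p 0.311 in limma). Of the 7 genes these 2 had treated libraries wholly above KO in ileum, against 2.82% of 18022 genes.

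The other members of the set overlapped between treated and KO ileum. S100a9 was listed at 0 in 3 of 4 KO and 2 of 3 treated libraries, and at 3.48 FPKM in treated 4, where S100a8 stood at 6.71 times its level. Mmp8 was at 0.0255 to 0.0632 FPKM in KO and at 0.0703, 0.0240 and 1.17 FPKM in treated. Treated 4 was thus the highest library for S100a8, S100a9 and Mmp8. It was also highest for Il1b, at 7.16 FPKM against 1.98 and 2.26 in the other treated libraries and 1.25 to 2.75 in KO (log2 difference 0.63, adjusted p 0.939 in limma). Csf3r was at 3.22, 0 and 1.73 FPKM in treated and at 0 to 0.784 in KO. Cxcr2 was again level, at 3.49, 3.77 and 4.57 FPKM in treated against 3.84, 3.63, 7.17 and 2.92 in KO (log2 difference -0.08, adjusted p 0.972 in limma). Its sign turned to 0.17 without KO 3.

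The treated and uninjected groups share the CDX2-VDR genotype. In this comparison no gene was called in either tissue in limma (0% of 12567 colon and 11815 ileum genes), while 143 colon genes and 97 ileum genes had an unadjusted p under 0.05. Retnlg was listed at 0.134, 0.572, 0.802 and 0.807 FPKM in uninjected colon and at 7.78, 6.51 and 7.84 FPKM in treated colon, on this table's scale. The groups did not overlap, which held for Retnlg and Mmp8 among the 7 and for 1.35% of all genes listed in the table. The log2 difference was 2.92 (SE 0.372), and the adjusted p was 0.171 in limma, the second smallest p of the table. Without uninjected 3, the library with Y-linked transcripts and the most acinar transcripts, it was 3.03 with an adjusted p of 0.0845. That was the smallest adjusted p among 16 alternative settings, none of which passed the threshold. Their log2 differences ran from 2.43 to 3.79.

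S100a8 overlapped between treated and uninjected colon, because uninjected 3 stood at 6.83 FPKM, above treated 1 at 5.63 FPKM. The other uninjected libraries were at 0.284, 0.974 and 0.458 FPKM and the other treated libraries at 94.7 and 57.9 FPKM. The log2 difference was 4.26 (SE 1.03, adjusted p 0.9995 in limma), and 4.97 with an adjusted p of 0.558 without uninjected 3. In ileum S100a8 was at 0.773, 2.35 and 1.83 FPKM in uninjected and at 13.02, 4.42 and 21.85 FPKM in treated libraries, with no overlap and a log2 difference of 2.49 (SE 0.613, adjusted p 1 in limma). Retnlg in ileum did not overlap either, at 0, 2.64 and 3.90 FPKM against 7.05, 9.28 and 9.46 FPKM. Treated libraries lay wholly above uninjected ones for these 2 of the 7 and for 1.94% of all genes in ileum. Treated and uninjected mice also differed in sex by their labels, so that by label injection and sex cannot be told apart for most libraries. Ddx3y was above 1 FPKM in more uninjected libraries than the labels call male, namely colon 3 and 4 and ileum 3 and 4.

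Uninjected and KO libraries overlapped for all 7 genes in both tissues, and no member was called, where 0.0804% of colon and 0.00846% of ileum genes were. Over all genes 2.58% in colon and 7.29% in ileum had groups that did not overlap, in either direction. In colon S100a8 was listed at 0.282, 0.963, 6.82 and 0.456 FPKM in uninjected 1 to 4, so that uninjected 2 and 3 were above the KO maximum of 0.737 FPKM, uninjected 3 by far the more. The log2 difference of S100a8 was 1.04 (SE 0.671, adjusted p 0.721 in limma). The order of group means in colon was treated, uninjected, KO for S100a8, S100a9 and Mmp8 and treated, KO, uninjected for Retnlg, and in each case the lower pair of groups overlapped. These comparisons share groups, so their values are not independent.

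The make-up of the set differed between KO and treated libraries. In KO colon S100a8 made up 0 to 12.1% of the summed FPKM of the 7 genes and Cxcr2 made up 58.5 to 75.9%. In treated colon 1, 2 and 4 S100a8 made up 29.6, 79.3 and 65.3% and Cxcr2 17.1, 3.46 and 6.07%. In ileum S100a8 made up 8.29 to 13.6% in KO and 46.4, 22.9 and 45.3% in treated libraries. The uninjected colon library that stood apart, uninjected 3, had 45.3% S100a8.

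**Figure D3:**
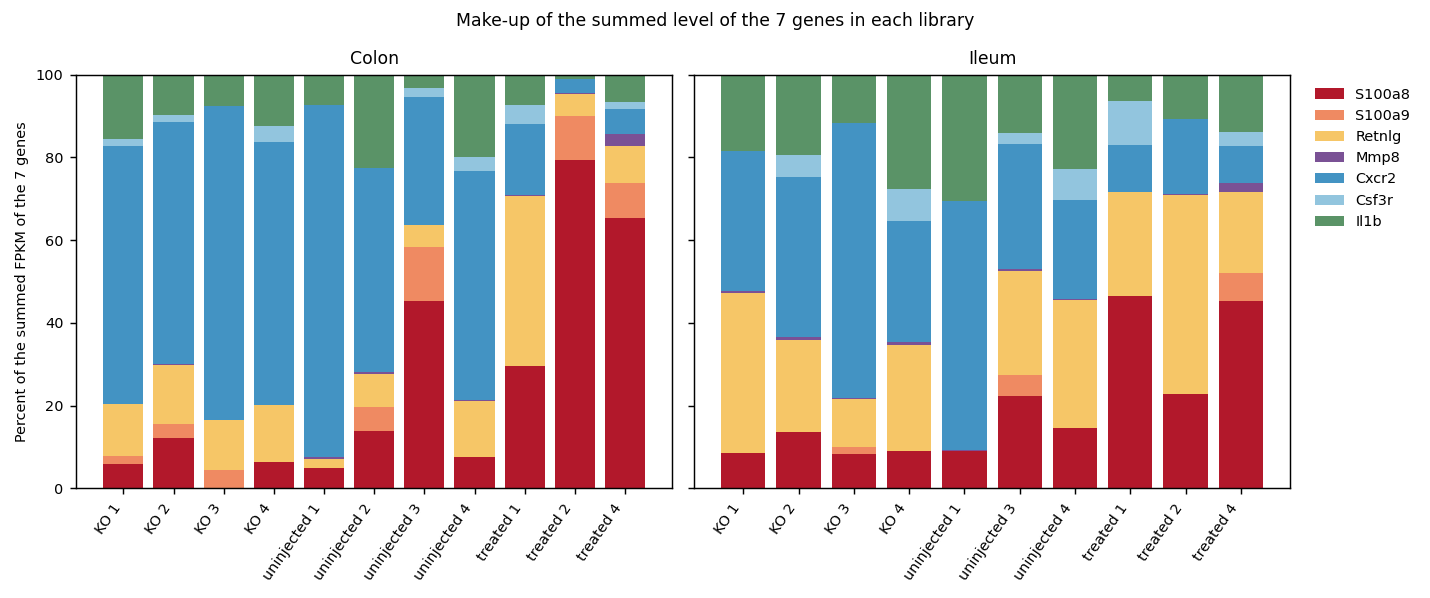
Share of each of the 7 genes in their summed FPKM, in percent, as 1 stacked bar per library for colon and ileum. Cxcr2 fills most of each KO colon bar, and S100a8 fills 79.3% and 65.3% of treated colon 2 and 4.

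The difference between treated and KO was smaller in ileum than in colon for both leading genes, but not beyond the adjusted threshold. Colon and ileum libraries of KO share replicate numbers and ages, and those of the treated group share column numbers, so both tissues may come from the same mice, while the fit took all libraries as independent. The ileum difference minus the colon difference was -2.32 (SE 1.05) on the log2 scale for S100a8, with an unadjusted p of 0.0439 and an adjusted p of 0.977 in limma. It was -0.90 (SE 0.398) for Retnlg, with an unadjusted p of 0.0401 and an adjusted p of 0.977. By this test 0.00803% of 12448 genes were called.

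The genes around the set were taken as 9 lists with 104 entries, of which 101 were found. In treated against KO colon 59 were tested, 2 were called higher and 1 lower, and in ileum 62 were tested, 2 were called higher and none lower. The genes called higher were the same pair in both tissues. S100g, the epithelial calcium-binding protein calbindin-D9k and a target of VDR, was higher by 7.84 on the log2 scale in colon (adjusted p 0.000163 in limma) and by 5.06 in ileum (adjusted p 0.00206). S100g was also called higher in uninjected against KO colon. Timp1, an inhibitor of matrix metalloproteinases, was at 3.70 ± 0.820 FPKM (SD, n = 4) in KO and 36.9 ± 16.8 (SD, n = 3) in treated colon (adjusted p 0.0134 in limma). In ileum it was at 3.03 ± 1.47 in KO and 19.6 ± 3.74 in treated (adjusted p 0.0422). Uninjected libraries overlapped the treated range of Timp1 in both tissues, with colon uninjected 3 at 45.2 FPKM. Retnlb, the goblet cell relative of Retnlg, was lower in treated than in KO colon, at 212 ± 126 against 1930 ± 508 FPKM, by 3.41 on the log2 scale (adjusted p 0.0422 in limma). The resistin family without Retnlg summed to 144 to 2000 FPKM in uninjected colon, which overlapped the 77.2 to 307 of treated colon. Retnla, which shares sequence with Retnlg, had a log2 difference of -0.55 in colon (adjusted p 0.689) and 0.07 in ileum.

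The remaining neutrophil genes did not pass the test. Granule proteins had a median log2 difference of 1.52 in colon (4 tested) and 0.79 in ileum (5 tested), beside a median over all tested genes of -0.01 in colon and 0 in ileum. The list medians cover only genes past the filter, whose mean includes the treated libraries, so genes high in treated alone can enter and raise them. In colon 4 of 15 granule genes found were tested, 9 of 17 surface genes and 5 of 16 attractants. The fit of uninjected against KO colon tested 3, 7 and 2 of them. Lcn2, lipocalin-2, which binds bacterial siderophores and is also made by epithelium, was at 32.4 ± 41.8 FPKM in treated and 2.87 ± 0.852 in KO colon (adjusted p 0.496 in limma). In ileum it was at 36.8 ± 34.0 against 2.27 ± 0.190 FPKM (adjusted p 0.195). The surface and adhesion genes had a median of 0.79 in colon (9 tested) and 0.60 in ileum (10 tested). The one with the smallest p in colon, Clec4d, a C-type lectin of myeloid cells, was at 3.71 ± 2.34 against 0.247 ± 0.0952 FPKM in colon (adjusted p 0.0992 in limma). In the same list Cd177, a neutrophil surface protein, had a log2 difference of -0.80 in colon and 1.15 in ileum, and neither was called. The attractants of neutrophils had a median of 1.30 in colon (5 tested), with Cxcl1 at 2.42 (adjusted p 0.378) and Cxcl5 at 1.87 (adjusted p 0.421). Receptors of calprotectin had a median of 0.04 (4 tested) and the genes of the interleukin-1 system 0.14 (11 tested).

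**Figure D4:**
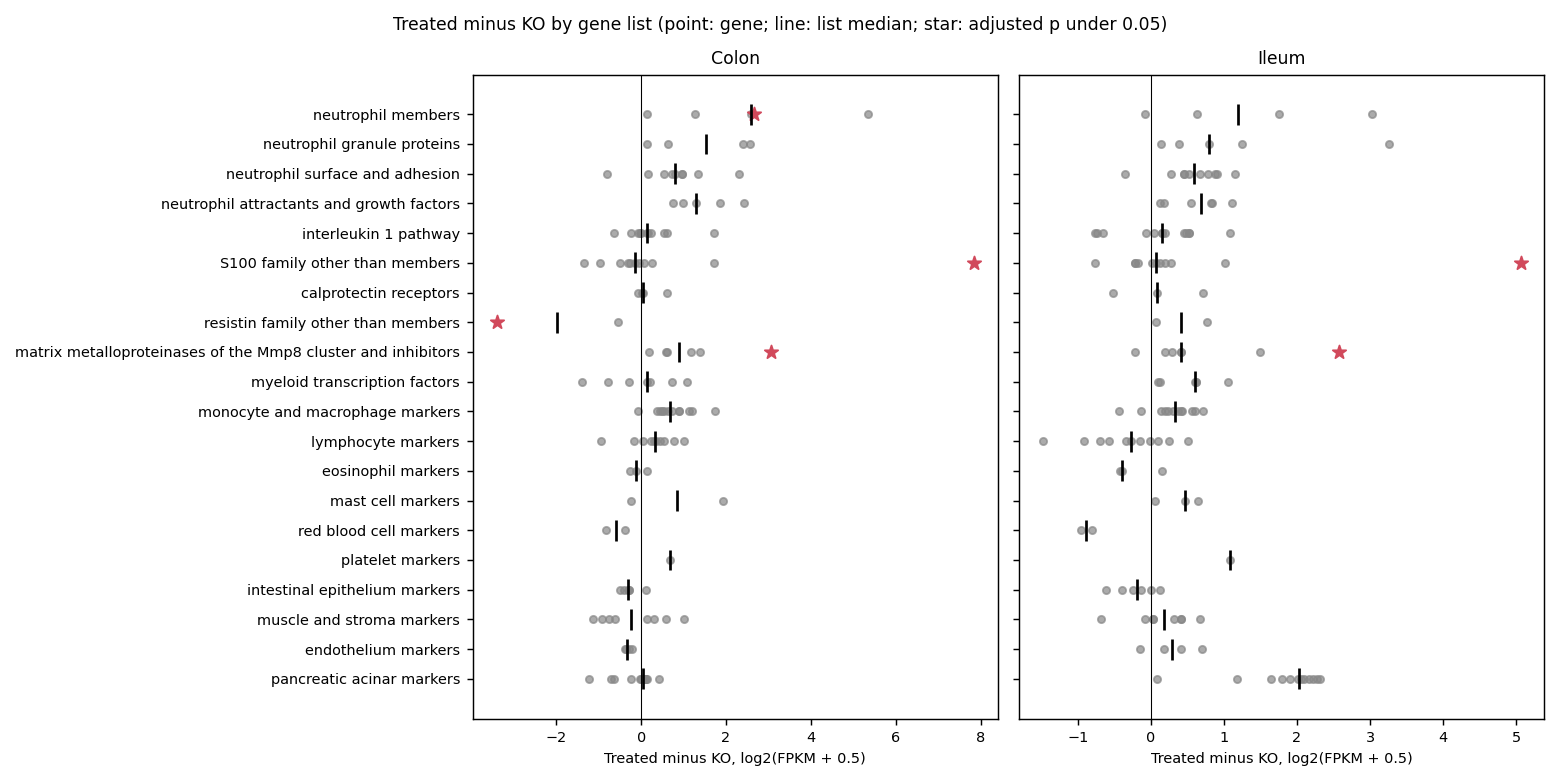
Log2 difference of treated minus KO for the tested genes of each list, in colon and ileum. Points are genes, lines are list medians, and stars mark an adjusted p under 0.05, reached by Retnlg, S100g, Timp1 and Retnlb in colon and by S100g and Timp1 in ileum.

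Transcripts of the primary granules, which form early in neutrophil maturation, were low, and 3 of 4 were near 0. Mpo, myeloperoxidase, was at most 0.0463 FPKM in colon and 0 in all 10 ileum libraries. Ctsg, cathepsin G, was at 0 in 9 of 11 colon and all 10 ileum libraries. Elane, neutrophil elastase, reached at most 0.304 FPKM in colon and 0.152 in ileum. Prtn3, proteinase 3, was the exception and was listed above 0 in all 11 colon libraries, at 0.299 to 0.37 FPKM in KO, 0.208 to 0.449 in uninjected and 0.471 to 1.61 in treated. In ileum it was at 0.139 to 0.814 FPKM in KO and 0.378 to 1.74 in treated libraries, which overlapped. These genes are transcribed mainly by precursors in bone marrow. Ly6g was not matched by symbol.

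Markers of other cells moved in part with the treated group, and their part in the results was not tested. The monocyte and macrophage list summed to 261 to 304 FPKM in KO colon and to 394 to 525 in treated colon, but colon uninjected 2 stood above both at 584. In ileum it overlapped, at 277 to 392 FPKM in KO and 308 to 653 in treated libraries. In colon Ccr2, a chemokine receptor of monocytes, was at 6.15 ± 2.19 against 1.45 ± 0.462 FPKM (adjusted p 0.0567 in limma). Of 83 found genes in 11 lists of other cell types, 60 were tested in colon and 62 in ileum, and none was called in any of the 6 comparisons. Platelet markers summed to 34.1 to 37.0 FPKM in treated colon and to at most 28.7 in the other colon libraries, and in ileum to 11.8 to 27.5 in treated and 7.08 to 13.3 in KO. Pancreatic acinar markers in ileum had a median log2 difference of 2.04 between treated and KO, with 12 of 12 genes above 0, and summed to 437 to 617 FPKM in treated, 226 to 456 in KO and 21.4 to 1140 in uninjected libraries. Markers of squamous epithelium summed to 0.289 to 0.533 FPKM in KO, 0.273 to 0.652 in uninjected and 0.708 to 1.09 in treated colon. In ileum they summed to 4.27, 1.92 and 0.211 FPKM in treated 1, 2 and 4 and to 0.22 to 0.31 in KO. Their relation to S100a8 was not tested. Without treated 4, the treated colon library with the most acinar transcripts, Retnlg had a log2 difference of 2.62 and an adjusted p of 0.00795.

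The genes whose level followed S100a8 most closely over the libraries of a tissue differed between tissues. The measure was Pearson's r of log2(FPKM + 0.5), given as a description, since libraries share their group and depth. Over 11 colon libraries and 12476 genes the closest were Ms4a6c (0.956), Ccl2 (0.942), Clec4d (0.937), 9130024F11Rik (0.931) and Ccdc80 (0.922). Ccl2, a chemokine that draws monocytes, was at 14.3 to 27.3 FPKM in treated and 1.25 to 5.24 in the other colon libraries. Of the members S100a9 had an r of 0.914, Retnlg 0.841 and Cxcr2 0.366. Over 10 ileum libraries and 11875 genes the closest were Lcn2 (0.973), Ifitm6 (0.961), Steap1 (0.949), Saa3 (0.942) and Asns (0.934). Saa3, an acute-phase protein, was at 27.1 to 187 FPKM in treated and 6.42 to 19.9 in the other ileum libraries. There Retnlg had an r of 0.73 and Cxcr2 of -0.13.

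**Figure D5:**
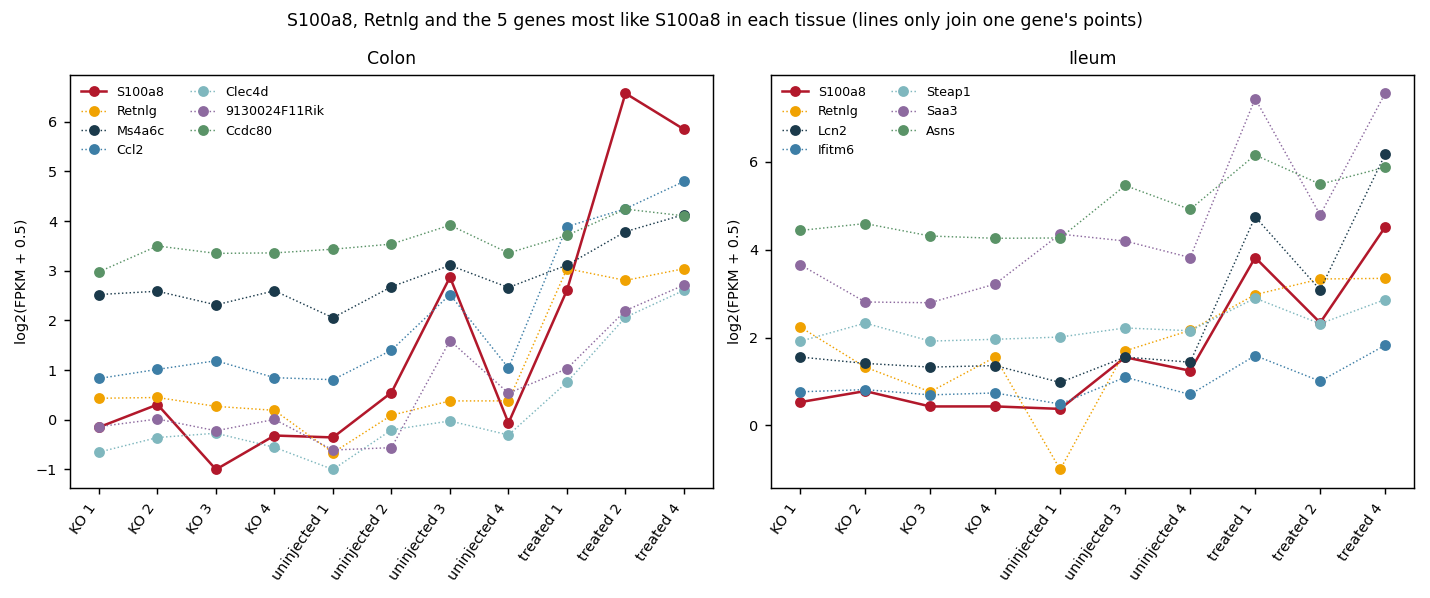
Level of S100a8, Retnlg and the 5 genes most like S100a8 in each library of colon and ileum, as log2(FPKM + 0.5). The 5 genes were chosen by their correlation with S100a8 over these libraries, which favours genes high where S100a8 was high. Treated and other libraries overlap for 9130024F11Rik and Ccdc80 in colon and for Ifitm6 and Steap1 in ileum.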

How the data were processed

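Poly(A) RNA of 21 colon and ileum libraries was sequenced. The deposited values are FPKM per gene, which the authors made by mapping in CLC Genomics Workbench, per the labels' protocols. Per the submitters' processing notes the build was mm9, and kallisto 0.45.0 is listed with no role given. Each of the 6 tables holds 2 groups, and groups were tested only within a table. A library differed between tables by 1 constant factor (0.9893 to 1.0928), which was not the same for all libraries. For descriptions, treated values were divided by 1 factor per tissue, the median ratio of the KO means, so that joined scale is approximate. Tables were tested with limma 3.58.1 (R 4.3.3, intensity trend) on log2(FPKM + 0.5), over genes whose mean reached 1 FPKM, with Benjamini-Hochberg adjustment over all tested genes and a threshold of 0.05. Members below the filter came from a fit with no filter. The log2 scale understates changes of low genes. Depth was read from whole counts recovered from the FPKM steps (tolerance 0.01).

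The members and lists were chosen with earlier results of these data known. The rule named all members, up to 3 genes of each list with the smallest p in a comparison, every list gene past the threshold, and the 5 genes most like S100a8 in each tissue. From these the text takes a part. The bone marrow granule genes, Vdr, Trpv6, Ddx3y and Epcam fall outside the rule and serve as checks. Alternatives were other pseudocounts (0.1 and 1), filters, normalizations, a fit with no trend, a replicate block, leaving out libraries, and voom on recovered counts, the last chosen after seeing the data. Scripts were tested on simulated data and used Python 3.11.15, numpy 2.4.6, pandas 2.3.3 and matplotlib 3.10.9. Within a table, replicate numbers matched to labels were shared by uninjected and KO colon alone; KO numbers and ages also match between tissues. The column numbers of the treated and ileum uninjected groups differ from the labels' replicate numbers, so these libraries are known by group only.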

Additional observations from a re-analysis of the deposited data

Results flagged for a closer look

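Among 21 sets of 4 libraries, each 1 gene in 1 group, 3 had a library far from the other 3 by Dixon's criterion. Chance meets it in about 1 of 20 sets of normally spread values, a rate that does not hold where values are tied at 0. S100a8 stood at 6.82 FPKM in colon uninjected 3, against 0.282 to 0.963 FPKM in the other uninjected colon libraries. The gap to the nearest of them was 0.896 of the range of the group. That library also had the most acinar transcripts, Y-linked transcripts despite a female label, and Timp1 at 45.2 FPKM, about as high as the highest treated library. Their part in the value was not tested. Mmp8 stood at 0.0158 FPKM in colon KO 2 and S100a9 at 0.163 FPKM in ileum KO 3, each from 1 recovered count, with the other 3 libraries of the group at 0. With the others at 0, any value above 0 meets the criterion.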

How the results depend on the processing

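Over 24 member differences and 368 alternatives, 347 kept their direction and side of the threshold, 4 newly passed it, 17 changed sign and 0 lost a call. In treated against KO colon 1 member was called, 2 with quantile normalization, and 1 to 3 when 1 library was left out, the 3 being without treated 1. In treated against KO ileum the count was 0 and ranged from 0 to 1, the 1 being without treated 2. Retnlg in treated against KO colon ranged from 2.27 to 3.21 on the log2 scale. Of the sign changes 15 were of Cxcr2. With voom on recovered counts it was -0.02 in uninjected minus KO colon and 0.06 in treated minus uninjected ileum, and with quantile normalization -0.08 in treated minus uninjected colon and 0.01 in uninjected minus KO ileum. Leaving out 1 library gave Cxcr2 from -0.13 to 0.20 in treated minus uninjected colon, -0.03 to 0.29 in treated minus KO colon, -0.28 to 0.17 in uninjected minus KO ileum, -0.14 to 0.20 in treated minus uninjected ileum and -0.22 to 0.17 in treated minus KO ileum. It gave -1.12 to 0.46 for Retnlg in uninjected minus KO ileum and -0.17 to 0.65 for Il1b in treated minus uninjected ileum. The cause was not tested. A replicate block for uninjected and KO colon called 0 members and 3 genes instead of 10, and same-numbered libraries deviated together in 1 of 4 pairs (correlations 0.004, -0.003, -0.006 and 0.671). Counts over all genes moved more than those of members. In uninjected minus KO colon 10 genes were called, 6 with voom, 2 without KO 1, 68 without uninjected 4, and 3 without KO 2, KO 4 or uninjected 2. In treated minus KO colon 37 were called, 17 without KO 1 or KO 2, 19 without KO 4 and 24 without KO 3. In treated minus uninjected colon 0 were called, 1 with no filter and 4 without uninjected 3. In treated minus KO ileum 10 were called, 5 with voom, 3 without KO 1, 2 or 4 and 4 without KO 3. In uninjected minus KO ileum 1 was called, and from 0 to 5 when 1 library was left out. Counting depth limits Mmp8, S100a9 and S100a8 most, with median recovered counts of 1, 2 and 4 in colon and 3, 0 and 7.5 in ileum.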
